A study of Rattus norvegicus with 6 samples.

Results

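RNA helicases of the Ddx and Dhx families, hnRNP proteins and SR splicing factors were followed in retinal ganglion cells, whose axons carry the output of the eye to the brain. The members were all probe sets whose only platform gene symbol begins with Ddx, Dhx or Srsf and a digit, or with Hnrnp or Hnrp. They comprised 75 genes (32 Ddx, 15 Dhx, 17 Hnrnp and 11 Srsf entries, of which Ddx3x-ps1 and Srsf7-ps4 are pseudogenes) among 14217 genes with such a symbol, measured by 122 probe sets. Where a gene had several probe sets, 1 was kept, the brightest, with the highest mean of log2(intensity + 16) over the 6 arrays. A further 7 probe sets, including those for Hnrnpk, carry several symbols and were left out.

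The cells came from 3 adult male Brown Norway rats in which pressure had been raised in 1 eye by hypertonic saline injected into an episcleral vein, with the fellow eye as control. Ganglion cells of both eyes had been back-labelled with Fluorogold from the superior colliculus. After 10 days of raised pressure, 2000 of them per eye were laser-captured and each eye gave 1 array. The arrays are labelled OD (right eye, n = 3) and OS (left eye, n = 3), and the labels do not state which eye had raised pressure. Differences below are therefore OS minus OD within a rat and have no direction with respect to pressure, and no group is known to be untreated.

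DEAD-box and DEAH-box helicases, named after a conserved stretch of their protein sequence, use ATP to unwind RNA or to strip proteins from it, and they act at nearly every step from transcription to translation and decay. hnRNP proteins coat nuclear RNA and often repress the use of an exon. SR proteins carry stretches rich in arginine and serine and often promote exon use. Neurons depend heavily on regulated splicing and on the transport of RNA into axons, in which several of these proteins take part.

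The array value is a fluorescence intensity scaled by the submitters to a common trimmed mean. The limit of signal over background was taken on each array from 27 bacterial control probe sets and lay between 261 and 591. Of the 75 member genes, 36 to 57 exceeded this limit on a given array. The 55 members whose mean brightness reached the median of all probe sets were tested, 15 of them above the limit on all 6 arrays. The other 20 were not tested. In this group 7 means were lower in OS and 13 were higher, and 4 stayed below the limit on every array. The label was checked against ganglion cell markers, of which 7 of 11 lay above the limit on all 6 arrays. So did 3 of 8 amacrine cell, 3 of 8 photoreceptor and 3 of 8 Mueller glia and astrocyte markers. The same held for 1 of 4 bipolar cell and 1 of 5 endothelial markers. Fewer cells of a type and less RNA per cell cannot be told apart in these samples.

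Ddx5 is a DEAD-box helicase that works in splicing, in transcription and in the processing of microRNA precursors. With 1 probe set kept per gene, it had the lowest OS value relative to OD of all 75 members. A Dhx36 probe set that was not kept was lower still, at -3.54 on the log2 scale. Ddx5 held this place by only 1 of its 2 probe sets. By the brighter one, 1372484_at, rat 1 had an intensity of 3094.2 in OD against 301.2 in OS, rat 2 had 1329.6 against 171.8 and rat 3 had 7545.2 against 1524.6. OS was far lower in each rat, yet the OS value of rat 3 exceeded the OD value of rat 2, so the eyes overlapped across rats. The log2 difference was -2.81 ± 0.50 (SD, n = 3 rats), a 7.01-fold lower level in OS, with a limma adjusted p of 0.113 over all probe sets, above the threshold of 0.05. Only the OS array of rat 3 exceeded its background limit among the OS arrays, so the fold is uncertain.

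The other Ddx5 probe set, 1371837_at, gave rat 1 an intensity of 1273.7 in OD against 838.0 in OS, rat 2 one of 961.6 against 1022.9 and rat 3 one of 1453.3 against 1304.9. All 6 of these values exceeded the background limit. The eyes were close to each other in every rat, and rat 2 went the other way. The log2 difference was -0.22 ± 0.35 (SD, n = 3 rats; limma adjusted p = 0.948), with a 95% interval of -1.36 to 0.92 that leaves out the estimate from the brighter probe set. That interval from the fit was -3.93 to -1.69 for 1372484_at.

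**Figure D1:**
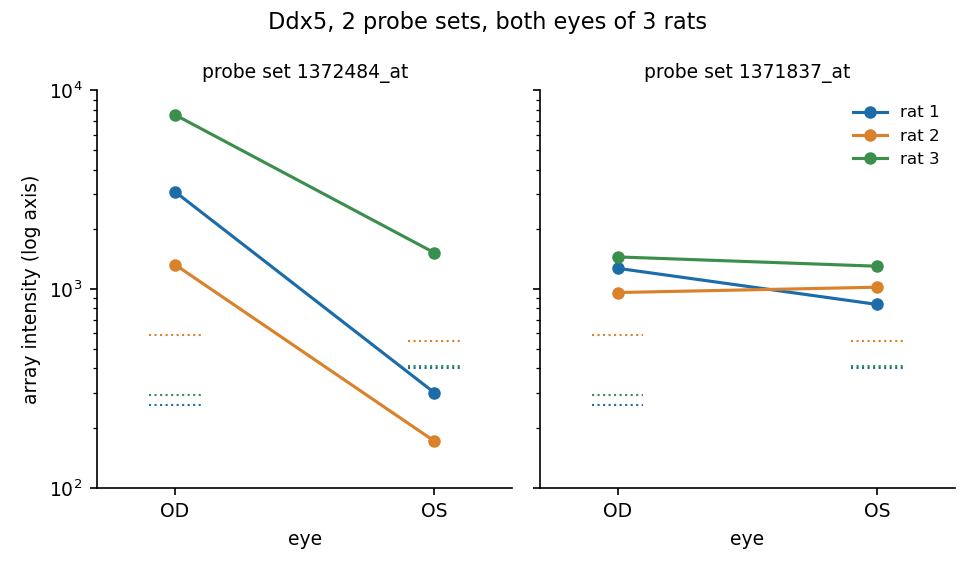
Intensity (log axis) of the 2 Ddx5 probe sets in OD and OS; a line joins the eyes of 1 rat, and dotted bars mark each array's background limit. By 1372484_at all 3 lines go down steeply, from 7545.2 to 1524.6 in rat 3, while by 1371837_at the 6 values stay between 838.0 and 1453.3.

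Which of these probe sets stood for Ddx5 was decided by a narrow margin, a mean log2 intensity of 10.22 for 1372484_at against 10.15 for 1371837_at. In OD 1372484_at was the brighter, at 11.63 against 10.26, and in OS it was the dimmer, at 8.82 against 10.04. It was thus kept through OD. The gap between the log2 differences of the 2 probe sets was -2.70 in rat 1, -2.93 in rat 2 and -2.14 in rat 3, a mean of -2.59 ± 0.40 (SD, n = 3 rats). With both averaged, Ddx5 stood at -1.52 (limma adjusted p = 0.603). In 1517 genes with several tested probe sets, the median gap between the 2 brightest was 0.87 in size, and 3.82% of them had a gap at least as wide as that of Ddx5. The comparison of the 2 probe sets was made after their values were seen, so no test is attached to it. The beta-actin control probe set for the 3' end, relative to that for the 5' end, was higher in OS by 1.94, 0.79 and 1.46 on the log2 scale in rats 1 to 3. The same ratio for Gapdh differed by 0.29, 0.91 and -2.97, with the opposite sign in rat 3 and a mean of -0.59 ± 2.08 (SD, n = 3 rats). Where the Ddx5 probe sets lie in the transcript is not known here, and the part of these ratios in the gap was not tested.

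The 250 bases upstream of the annotated start of Ddx5 are shown for the member with the lowest p in that direction, and those of Hnrnpl for the member with the lowest p in the other. Both are from RefSeq (build GRCr8), written 5′ to 3′ along the gene, Ddx5 from chr10:92231929-92232178 on the minus strand and Hnrnpl from chr1:93228151-93228400 on the plus strand. Capitals mark CCAAT boxes (CCAAT, or ATTGG on the other strand) and GC boxes (GGGCGG or CCGCCC).
Ddx5: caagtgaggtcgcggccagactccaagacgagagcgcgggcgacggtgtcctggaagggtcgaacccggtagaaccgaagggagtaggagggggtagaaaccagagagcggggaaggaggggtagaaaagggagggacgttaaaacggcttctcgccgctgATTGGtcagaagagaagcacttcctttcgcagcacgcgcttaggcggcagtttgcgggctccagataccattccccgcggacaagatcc
Hnrnpl: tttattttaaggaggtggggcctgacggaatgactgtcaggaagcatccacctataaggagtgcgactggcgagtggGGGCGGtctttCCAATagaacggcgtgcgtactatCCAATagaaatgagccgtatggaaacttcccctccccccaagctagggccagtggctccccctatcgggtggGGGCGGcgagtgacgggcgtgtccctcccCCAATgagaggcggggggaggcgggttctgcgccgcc

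Ddx5 holds 1 CCAAT box and no GC box in this stretch, and Hnrnpl holds 3 and 2. RefSeq windows of 300 bases, 250 before and 50 after a start, were found for 68 of the 75 members (74 windows). A CCAAT box on either strand was in 58.1% of these windows, against 37.5% of all 33469 windows, and a GC box in 64.9% against 33.1%. A TATA box (TATAAA or TTTATA) was in 12.2% against 14.2%. The member windows were richer in G and C, with a median of 60.2% against 51.7%, and these letters are a description of the sequence, not of binding.

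Set beside its family, Ddx5 by its brighter probe set, which was kept through OD, lay well below the median of the other 20 tested Ddx genes. Their median log2 difference was -0.60 in rat 1, -0.39 in rat 2 and 0.49 in rat 3, and Ddx5 minus this median was -2.69, -2.45 and -2.78. In rats 1 and 3 none of the 20 had a lower difference than Ddx5, and in rat 2 only Ddx50 did, at -3.36. The nearest gene was Ddx17 in rat 1, at -2.98 against -3.29 for Ddx5, and Ddx23 in rat 3, at -2.20 against -2.30. Ddx5 was singled out with its difference already known, so this place is a description, and the other Ddx5 probe set lies inside the range of the family.

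Ddx17, the closest paralogue of Ddx5 and its partner in several complexes, had another pattern. Intensities were 588.1 (OD) against 60.4 (OS) for rat 1, 59.9 against 901.6 for rat 2 and 712.7 against 1205.5 for rat 3. OS was lower in rat 1 and higher in rats 2 and 3, with values below background on both sides. The rats gave a mean of 0.45 ± 3.30 on the log2 scale (SD, n = 3; limma adjusted p = 0.948), with a 95% interval of -1.83 to 2.74. It turned to -1.12 without rat 2. Its dimmer probe set, not tested, stayed below the limit on all 6 arrays.

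Counts over the members lay near those over all genes. By limma, 0 of the 55 tested members passed the adjusted threshold, where 0.0129% of all probe sets did. At an unadjusted p under 0.05, 5 members were lower in OS (9.09%, against 5.2% of all genes tested) and 1 was higher (1.82%, against 1.73%), 6 in all where 6.94% of all genes were past that p. OS was lower in 3 of 3 rats for 9 members (16.4%, against 15.6%) and higher for 7 (12.7%, against 13.1%). Of these, Dhx9 and Hnrnpf passed the brightness filter through OD, and Dhx58 and Hnrnpul1 through OS. The mean was at least 2-fold lower in OS for 7 (12.7%, against 15.1%) and at least 2-fold higher for 7 (12.7%, against 11%). A lower mean in OS was found for 25 members (45.5%, against 53.7%) and a higher one for 30. Their median log2 difference was 0.12, against -0.07 over all 8594 genes tested. It was also 0.12 over all 75 members, and -0.13 without rat 3.

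Families and rats varied around these values. The family medians were -0.11 for Ddx, 0.12 for Dhx, 0.13 for Hnrnp and 0.45 for Srsf genes. Without Ddx5 the Ddx median was -0.03. The median over the 55 members was -0.08 in rat 1, 0.15 in rat 2 and 0.30 in rat 3, against -0.11, -0.05 and 0.01 over all genes. In rats 1 to 3, 31, 26 and 23 of the 55 members were lower in OS, which is 56.4%, 47.3% and 41.8% against 53.6%, 51.7% and 49.4% of all genes. For the Srsf genes the rat medians were -0.56, 0.03 and 0.91, so the highest family median came from rat 3.

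**Figure D2:**
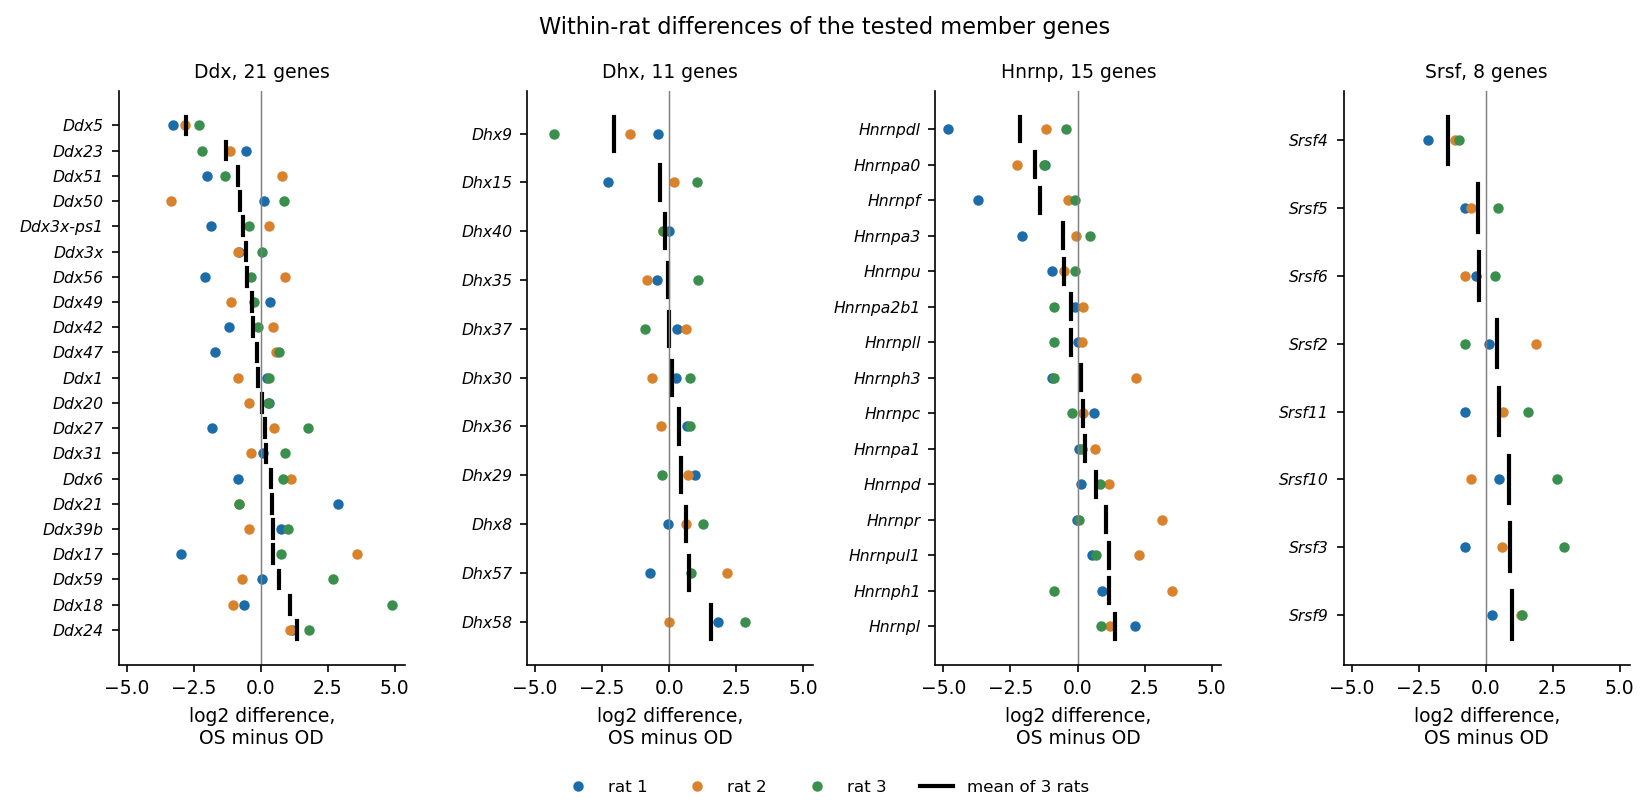
Log2 difference OS minus OD of each of the 55 tested member genes, in 4 panels by family; coloured points are rats and black bars their mean. Ddx5 has the lowest mean, with 3 points between -3.29 and -2.30, while most genes have rats on both sides of 0.

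**Figure D3:**
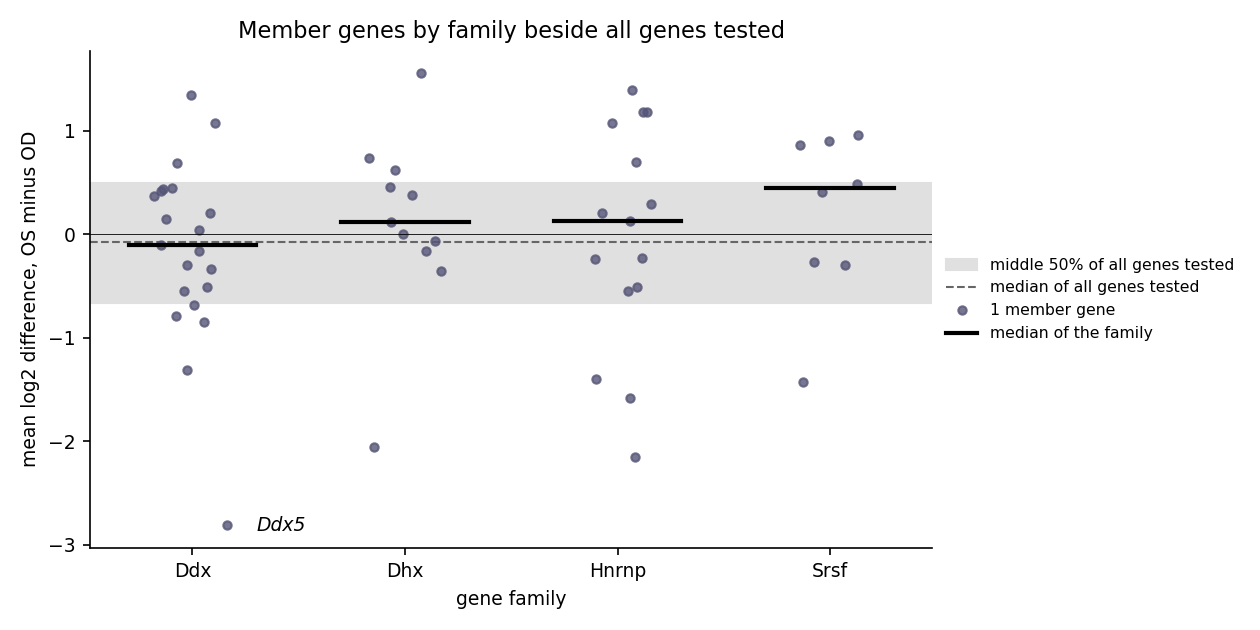
Mean log2 difference OS minus OD of each tested member by family, with the family median as a black bar, the middle 50% of all 8594 genes tested in grey and their median dashed. Family medians run from -0.11 (Ddx) to 0.45 (Srsf), inside the grey band, and Ddx5 is the lowest point at -2.81.

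Among the other Ddx helicases, Ddx23, a helicase of the spliceosome that acts before the first catalytic step, had intensities of 1545.1, 1840.1 and 1213.2 in the OD eyes of rats 1 to 3 and 1041.9, 810.5 and 251.8 in OS. Every OS array lay below every OD array. Its log2 difference was -1.31 ± 0.83 (SD, n = 3 rats; limma adjusted p = 0.693), which did not pass. Eyes separated in this way, with OS below OD, in 4 of the 55 members (5.7% of all genes) and with OS above OD in 5 (4.79%).

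Ddx24, a helicase of the nucleolus, gave opposite readings from its 2 tested probe sets. By the brighter one it was 500.2, 427.6 and 276.2 in OD and 1148.6, 919.7 and 988.0 in OS, higher in every OS array, at 1.34 ± 0.38 (SD, n = 3 rats; limma adjusted p = 0.735). By 1376116_at it was 1158.4, 804.6 and 1160.1 in OD and 366.8, 658.3 and 48.1 in OS, lower in every OS array, at -2.03 ± 1.99 (limma adjusted p = 0.659). No direction can be given for Ddx24. Ddx3x, which helps to start translation of structured messages, was at -0.55 ± 0.51 and Ddx51, a ribosome assembly helicase, at -0.85 ± 1.47, each lower in 2 of 3 rats (limma adjusted p = 0.836 and 0.845).

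With the brightest probe set kept per gene, the Dhx helicase with the smallest p was Dhx9, which unwinds RNA duplexes and RNA-DNA hybrids. Its intensity was 998.1, 932.5 and 1444.8 in the OD eyes of rats 1 to 3 and 747.7, 330.3 and 57.6 in OS. All OS arrays lay below all OD arrays, and most of the mean came from rat 3. With mean log2 intensities of 10.13 in OD and 8.07 in OS, Dhx9 passed the brightness filter of 8.12 through OD. The log2 difference was -2.06 ± 2.02 (SD, n = 3 rats; limma adjusted p = 0.633), with 1 of 3 OS arrays above the limit.

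Dhx58, which encodes a sensor of viral RNA, was 256.9, 421.7 and 68.4 in OD and 951.5, 424.7 and 586.3 in OS. All 3 OD values and the OS value of rat 2 lay below the background limit. With OD set at that limit and OS left as read, the OS mean came out 1.70-fold higher, with 2 of 3 OS arrays above background. This is not a strict lower bound, since the OS value of rat 2 is itself undetermined. The fit's 95% interval of -0.47 to 3.59 on the log2 scale includes no difference (limma adjusted p = 0.796). With mean log2 intensities of 7.76 in OD and 9.31 in OS, Dhx58 passed the brightness filter of 8.12 through OS. Its rat 2 values were almost equal, and the suffix _x_at of its probe set marks probes that may also match other transcripts.

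Dhx57 was at 0.74 ± 1.44 and Dhx29, which aids translation initiation, at 0.46 ± 0.65, each higher in 2 of 3 rats (limma adjusted p = 0.866 and 0.893). Dhx36, which resolves folded guanine-rich RNA, was at 0.38 ± 0.60 by its brightest probe set, and its 3 other tested probe sets gave -0.29, -3.54 and 1.57. The one at -3.54 ± 2.86 was lower in OS in 3 of 3 rats, with a smaller p than Dhx9 (limma adjusted p = 0.355). It passed the brightness filter through OD, with mean log2 intensities of 10.46 in OD and 6.92 in OS. Probe sets of a gene thus disagreed here too.

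Of the hnRNP genes, Hnrnpdl, a relative of the AU-rich element binding protein Hnrnpd, had the smallest p. Rat 1 had 3617.2 in OD against 112.6 in OS, rat 2 had 2574.0 against 1120.0 and rat 3 had 7147.3 against 5280.8. OS was lower in 3 of 3 rats, with log2 differences of -4.82, -1.19 and -0.44, the widest in rat 1. The mean was -2.15 ± 2.34 (SD, n = 3 rats; limma adjusted p = 0.356). It was -3.00 without rat 3, where it passed (limma adjusted p = 0.0185), and -0.81 without rat 1 (limma adjusted p = 0.958). The other tested probe set of Hnrnpdl gave -0.32 ± 1.31.

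Hnrnpa0, whose product binds AU-rich elements in messages, was 1586.0, 1281.4 and 2093.2 in OD and 667.4, 257.0 and 862.2 in OS. The eyes did not overlap, and the 3 rats gave similar differences of -1.23, -2.25 and -1.26. The mean of -1.58 ± 0.58 (SD, n = 3 rats) had a limma adjusted p of 0.590.

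Hnrnpl, a splicing regulator that binds CA-rich RNA, was the 1 member with an unadjusted p under 0.05 whose OS level was higher. It read 276.7, 714.0 and 715.2 in OD and 1274.0, 1655.4 and 1311.0 in OS, all 6 above the background limit. Every OS array exceeded every OD array, by 2.14, 1.20 and 0.86 on the log2 scale in rats 1 to 3. The mean was 1.40 ± 0.66 (SD, n = 3 rats; limma adjusted p = 0.672).

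Hnrnpr, which takes part in axonal RNA transport, was at 1.08 ± 1.81, with OS at 6172.0 against 671.5 in OD of rat 2 and nearly equal eyes in rats 1 and 3. Hnrnph1, which binds runs of G, was at 1.19 ± 2.22 and was lower in OS only in rat 3. Neither passed (limma adjusted p = 0.767 and 0.799). Hnrnpa1, a splicing repressor, was at 0.29 ± 0.33, Hnrnpu, a nuclear scaffold protein, at -0.51 ± 0.42 and Hnrnpc at 0.20 ± 0.40. The next brightest Hnrnpa1 probe set was lower in OS in 3 of 3 rats, with log2 differences of -1.38, -0.43 and -1.19. These genes were chosen after their values were seen.

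Among the SR genes, 0 of 8 tested had an unadjusted p under 0.05. Srsf4 came closest, at 1128.2, 1079.5 and 845.2 in OD and 242.8, 482.8 and 416.3 in OS. Its eyes did not overlap, and the log2 difference was -1.42 ± 0.63 (SD, n = 3 rats; limma adjusted p = 0.730), with 1 of 3 OS arrays above the limit.

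Srsf9 was 470.4, 423.2 and 300.7 in OD and 554.2, 1062.1 and 798.7 in OS, at 0.96 ± 0.64 (SD, n = 3 rats; limma adjusted p = 0.814). Its eyes did not overlap either, with OS above OD. Srsf3, the smallest SR protein, was at 0.91 ± 1.86, Srsf10, a splicing repressor when dephosphorylated, at 0.87 ± 1.63 and Srsf11 at 0.49 ± 1.19. Each of these 3 lay just below 0 without rat 3, at -0.090, -0.024 and -0.065. For Srsf11 the OS array of rat 3 read 19865.2, against 3813.1 to 6585.6 on the other 5 arrays. The other Srsf11 probe set gave -0.52 ± 0.30, lower in OS in 3 of 3 rats. Srsf1, the founding member of the family, was too dim to be tested. It read 384.7, 420.5 and 561.6 in OD and 302.9, 42.6 and 159.6 in OS, with no OS array above the limit, and is named for its role in the family.

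**Figure D4:**
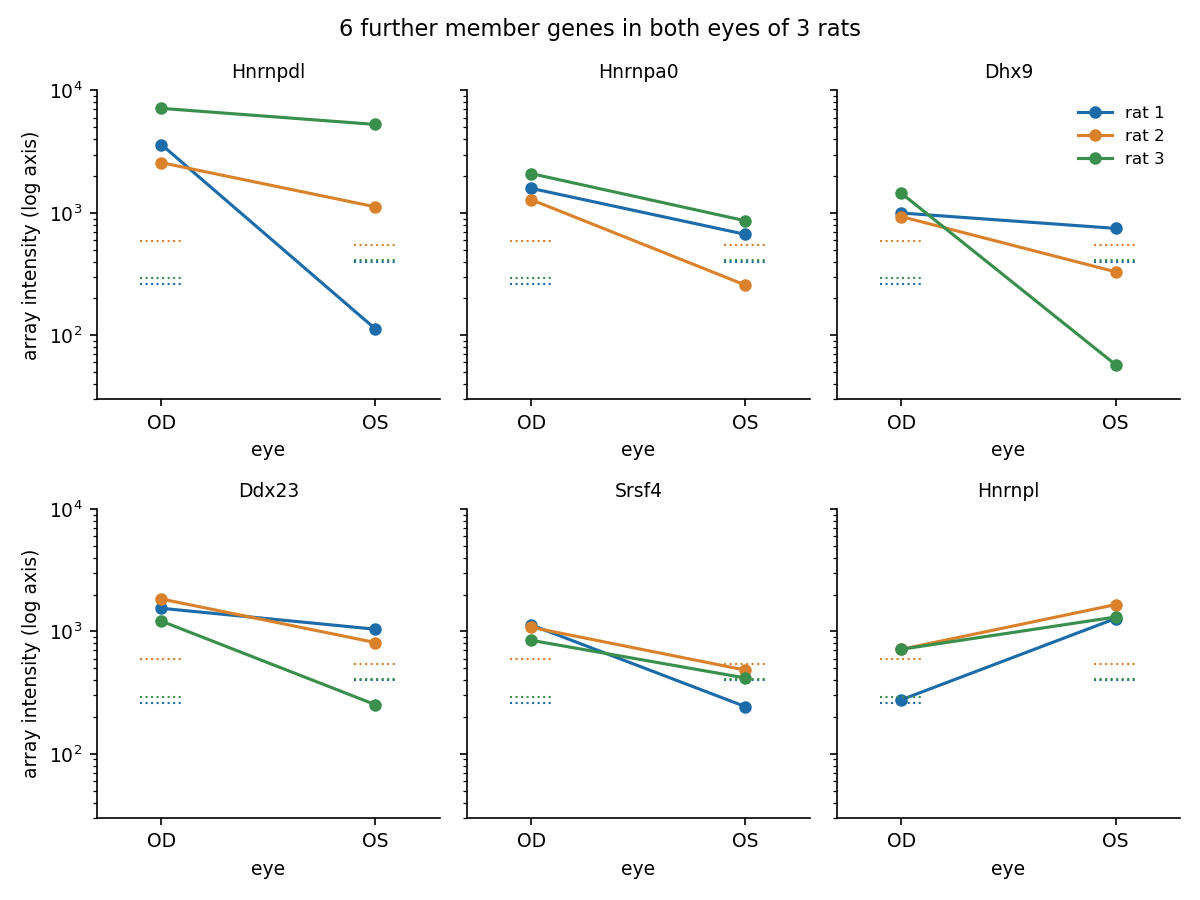
Intensity (log axis) of 6 members in OD and OS; a line joins the eyes of 1 rat and dotted bars mark each array's background limit. Hnrnpa0, Dhx9, Ddx23 and Srsf4 have all OS values below all OD values, Hnrnpl has all above, and Hnrnpdl overlaps because rat 3 is high in both eyes.

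Agreement between probe sets of a gene could be checked for 14 members with several tested. The tested probe sets of 8 went the same way and those of 6 did not. Between the 2 brightest, the directions were opposite in 42.9% of these 14 genes, against 49.6% of the 1517 genes with several tested probe sets. The gap was widest for Ddx24 at 3.38, then Ddx5 at 2.59 and Hnrnpdl at 1.83 in size, with a median of 0.76 for the members and 0.87 for all such genes. The kept probe set of Ddx5 and that of Hnrnpdl were each the brighter one in OD but the dimmer one in OS. For Ddx24 the kept probe set was the brighter in OS and the dimmer in OD.

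**Figure D5:**
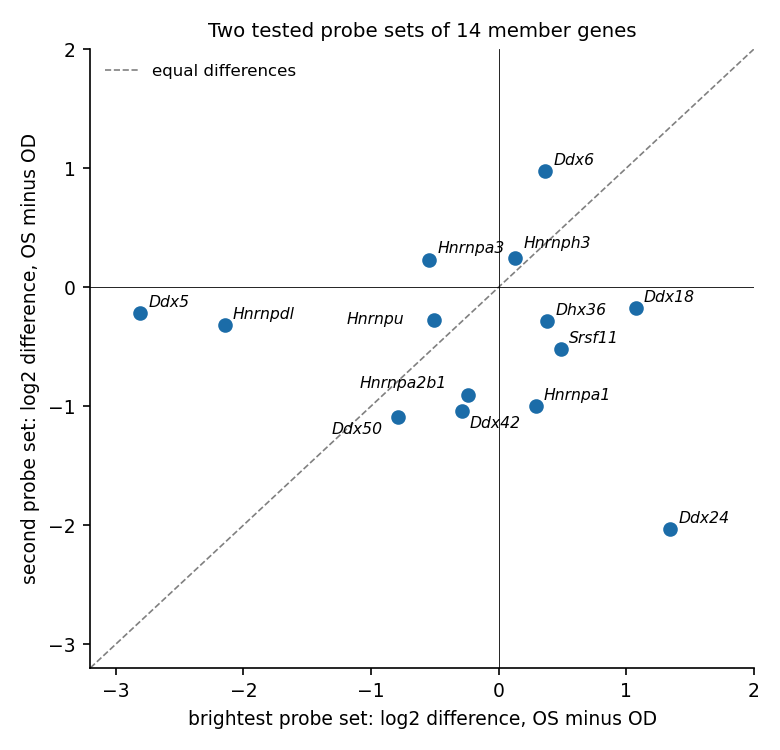
Log2 difference OS minus OD by the brightest (x axis) and the next brightest tested probe set (y axis) of 14 member genes, with a dashed line where both are equal. Ddx5 (-2.81, -0.22), Hnrnpdl (-2.15, -0.32) and Ddx24 (1.34, -2.03) lie farthest from the line.

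Some members set 1 rat apart rather than 1 eye. Both arrays of rat 3 exceeded the other 4 for 10 of the 55 members (18.2%, against 12.5% of all genes tested), and lay below them for 4 (7.27%, against 8.69%). Ddx1, part of the transfer RNA ligase complex, read 3843.3 and 4727.3 in rat 3 and 537.6 to 978.2 elsewhere. Dhx29 read 1877.2 to 2280.8 there, against 348.7 to 911.3. Both arrays of rat 2 lay below the other 4 for 9 members (16.4%, against 8.61%), among them Ddx20, a helicase of the complex that assembles spliceosomal particles, at 38.9 and 59.1 against 723.8 to 1415.6. The arrays of a rat are not independent samples of a condition, and these counts carry no test.

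The other RNA-processing genes, in 7 lists, contained no gene past the adjusted threshold by limma. Of 37 tested core spliceosome genes, 4 were lower and 3 higher in OS in 3 of 3 rats, with a median log2 difference of -0.16. That was 10.8% and 8.11% of the list, against 15.6% and 13.1% of all genes tested. None of the 37 had an unadjusted p under 0.05, and Lsm4 (-0.92 ± 0.58) and Lsm7 (1.39 ± 1.21) had opposite signs. Of 23 neuronal and other splicing regulators, 8 were lower and 1 higher in 3 of 3 rats, or 34.8% and 4.35% of the list against 15.6% and 13.1% of all genes tested. At an unadjusted p under 0.05 there were 3, all lower, where 5.2% of all genes were. The median was -0.59, and it was -0.42, 0.02 and -0.42 in rats 1 to 3. Mbnl2 was at -1.98 ± 2.03 and Celf5 at -1.50 ± 1.07 (limma adjusted p = 0.467 and 0.590). This list was bright, with 52.2% of its genes above the limit on all 6 arrays, against 26.0% of all genes tested. Of all genes above the limit on all 6 arrays, 20.4% were lower and 11.5% higher in 3 of 3 rats. The part of brightness in the counts was not tested.

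hnRNP proteins under other names had a lower mean in OS in 9 of 11 tested genes (81.8%, against 53.7% of all genes tested), with a median of -0.49. The rat medians of this list were -0.998, 0.168 and 0.353 in rats 1 to 3, negative only in rat 1. In 3 of 3 rats, 1 of the 11 genes was lower in OS (9.09%, against 15.6% of all genes tested) and 0 were higher (against 13.1%). Ptbp2, the neuronal polypyrimidine tract binding protein, was at -1.34 ± 1.04 and Pcbp2 at -0.81 ± 1.20. At an unadjusted p under 0.05 there was 1 of the 11 genes, lower in OS, where 5.2% of all genes tested were. SR-related proteins and SR kinases had a median of 0.12 over 17 genes. Of these 17, 2 were lower and 1 was higher at that p, where 5.2% and 1.73% of all genes tested were. Tra2b, an SR-like splicing activator, was at -0.99 ± 0.60 and Luc7l at 2.27 ± 0.50 (limma adjusted p = 0.690 and 0.285).

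Among 11 exon junction, export and decay genes, Upf3b of the nonsense-mediated decay pathway was at -1.71 ± 1.45 and the export gene Thoc2 at 1.07 ± 1.52, with a list median of -0.20. At an unadjusted p under 0.05 there was 1 of the 11, lower in OS, where 5.2% of all genes tested were. Of 9 other RNA helicases none reached that p, with Ascc3 at 1.82 ± 1.10, Mtrex at 0.68 ± 1.41 and a median of 0.35. None of the 6 tested genes of microRNA processing, where Ddx5 acts with Drosha, reached it either. Xpo5 was at -1.01 ± 1.04, Prkra at -0.99 ± 0.98 and the median at -0.13.

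Cell type markers moved beside these values. The summed intensity of 11 ganglion cell markers was 21988 to 30959 in OD and 12589 to 17714 in OS, lower in OS in 3 of 3 rats. That of 8 amacrine cell markers was 25089 to 62847 and 11460 to 16779, with Chat above the limit on no array, and that of 6 pigment epithelium markers 5974 to 19754 and 2240 to 4045. Both sums were lower in 3 of 3 rats, as was Ddx5 by 1372484_at but not by 1371837_at, which was lower in 2 of 3. Single markers were less uniform than the sums. Lower in 3 of 3 rats were 6 of 11 ganglion cell, 3 of 8 amacrine cell and 3 of 6 pigment epithelium markers, against 13.8% of all genes. Of the 6 pigment epithelium markers, 0 lay above the limit on all 6 arrays. The sums of 8 photoreceptor (11625 to 38465 in OD, 10585 to 25836 in OS), 8 Mueller glia and astrocyte (6695 to 19372, 7038 to 16795), 10 microglia and macrophage (2772 to 4903, 3518 to 12551) and 5 endothelial markers (4457 to 5184, 2241 to 10762) overlapped between eyes. So did those of 4 bipolar cell markers (1285 to 2611, 2051 to 3233), which were higher in OS in 3 of 3 rats. The part of these markers in the differences of the members was not tested.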

How the data were processed

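The deposited tables hold 1 linear intensity per probe set of 1-colour Affymetrix arrays, processed by the authors with GCOS, per the submitters' processing notes (version not given in the sources used here). No detection calls or scanner files were used here. Trimmed by 2% at each end, every array's mean was near 500.1, so no further scaling was applied. The number of arrays limits the precision. Per the labels' protocols, RNA was amplified linearly with a RiboAmp HS kit before 10 µg was labelled.

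Probe sets were named from the platform annotation. Of 31099, 57 were controls. Intensities were analysed as log2(value + 16), which understates folds of dim genes. The 15521 probe sets at or above the median brightness entered a limma fit (version 3.58.1, R 4.3.3), with the rat as block and an eBayes prior that follows brightness (two-sided; 2 residual and 19.4 prior degrees of freedom) and Benjamini-Hochberg adjustment at 0.05 over all of them, and 95% intervals come from the same fit. The background limit is the 95th percentile of 27 bacterial controls that were assumed not to be spiked in. Both eyes of a rat share its number in the titles. Deviations from the eye means correlated at 0.109, 0.122 and 0.326 across probe sets for rats 1 to 3.

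The members and gene lists were chosen with earlier results of these data known. Named were Ddx5 and Ddx17, the 5 members of each family with the smallest p, any member past the threshold, and 2 genes of each pathway list; others are said to be chosen after their values were seen, or illustrate a count, a range or a probe set. Alternatives covered the offset, normalization, filter, block, prior, single rats and probe sets.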

Additional observations from a re-analysis of the deposited data

How the results depend on the processing

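Chosen after seeing the data were the filter on the control limit (3 or more arrays), the other probe sets, and the alternatives for 2 member counts. Of all probe sets, 2 were past the adjusted threshold. This became 0 under an offset of 1, quantile normalization, a filter at the 75th percentile of brightness, and likewise without the intensity trend, with no replicate block and with a random replicate block. A robust prior variance gave 1, an offset of 64 gave 8, no filter gave 9, and leaving out 1 rat gave 18 to 59. The count of 0 members was 1 with an offset of 64 and without a filter, each time Ddx5 (adjusted p = 0.0333 at -2.65, and 0.0266 at -2.81), and 0 to 1 with 1 rat left out: Ddx5 without rat 2 (adjusted p = 0.0128) and Hnrnpdl without rat 3 (0.0185). Ddx5 ran from -3.07 to -2.57 with 1 rat left out. Its adjusted p was 0.953 with no replicate block and 0.816 with the random replicate block. No member passed the adjusted threshold under either, as in the main fit. The 6 members at an unadjusted p under 0.05 became 5 with no replicate block, 8 with the random replicate block and 3 without the trend. With 1 rat left out they became 3 to 6. The member median ran from -0.13 (without rat 3) to 0.21 (without rat 1). With probe sets of a gene averaged it was -0.06, Ddx24 was -0.34, Dhx36 -0.47 and Srsf11 -0.017. Other probe sets gave -2.03 for Ddx24, -0.29 and -3.54 for Dhx36 and -0.52 for Srsf11. With 1 rat left out, Ddx17 ran from -1.12 to 2.17, Srsf3 from -0.090 to 1.75, Srsf10 from -0.024 to 1.57 and Srsf11 from -0.065 to 1.12. The causes were not tested. Of 282 values of the named members other than Ddx5 under alternatives, 270 kept direction and side of the threshold. The filter, block and prior settings leave a difference as it is, so their values could not change direction. No named member passed in the main fit, so the side could change only by passing. The 270 are thus no measure of robustness. Signal at or near background limits the sizes for, among others, Ddx5, Ddx17, Ddx24, Dhx9, Dhx58, Hnrnpdl in rat 1, Srsf1 and Srsf4.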
